A study of Mus musculus with 14 samples.

Results

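Heat shock chaperones bind unfolded or partly folded proteins and help them to fold, to reach their partners or to be degraded. In the cytosol HSP70 proteins bind exposed stretches of a client, HSP110 proteins release the nucleotide that HSP70 holds, HSP90 matures kinases and receptors, and the ring-shaped chaperonin TRiC folds actin and tubulin. HSP60 forms the corresponding ring in the mitochondrial matrix. Many of these genes respond to the transcription factor HSF1, which binds repeats of the letters GAA in alternating orientation when unfolded protein accumulates in the cytosol.

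The 6 members described here are Hsp90aa1 (ENSMUST00000094361, chromosome 12), the stress-inducible cytosolic HSP90; Hspa8 (ENSMUST00000015800, chromosome 9), the constitutive cytosolic HSP70; the HSP110 genes Hspa4 (ENSMUST00000020630, chromosome 11) and Hsph1 (ENSMUST00000202361, chromosome 5); Hspd1 (ENSMUST00000027123, chromosome 1), the mitochondrial HSP60; and Cct4 (ENSMUST00000173867, chromosome 11), a subunit of TRiC. They were chosen by gene symbol, with earlier results of these data known. Counts and medians of the members set beside those of all transcripts are thus a description and not a test. Each was represented by 1 of the 1399 Ensembl transcripts listed in every library, so 6 of 1399 transcripts are the members.

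The libraries held polyadenylated RNA of mouse embryonic fibroblasts (MEFs), all labelled wild type, in 7 groups of 2. A first experiment of 6 libraries held untreated cells (NT), cells starved of cysteine and cells starved of all amino acids; a second of 8 libraries held untreated cells (NT2), cells given cysteamine, cells transfected with a short hairpin RNA against CTNS (CTNS knockdown) and cells given the hairpin plus a CTNS plasmid (rescue). CTNS encodes the lysosomal cystine exporter, and cysteamine is a drug that clears cystine from lysosomes. That NT is the control of the starvations and NT2 of the rest was read from sample names and column headings and is an assumption. Neither a dose, a duration nor a control for transfection is given in the labels, so an effect of transfection and an effect of the hairpin cannot be told apart. Ctns was not among the listed transcripts, so its knockdown was not analysed here. Whether the 2 libraries of a group are separate cultures is not given in the labels. The p-values of the main fit reflect the spread between libraries of both experiments, which may be technical.

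**Figure D1:**
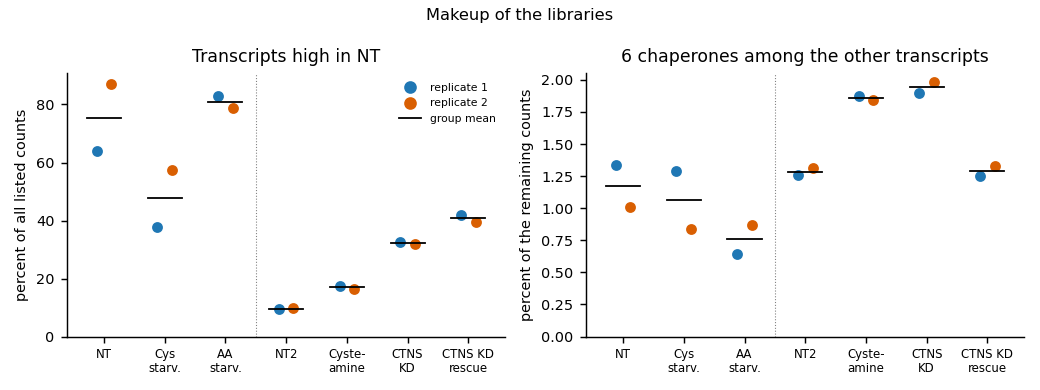
The left panel plots, for each library (points) and group mean (lines), the percent of all listed counts held by 347 transcripts that were high in NT relative to NT2; the right panel plots the percent of the remaining counts held by the 6 chaperones. The left share is 9.49% and 9.70% in the NT2 libraries and 63.8% or more in every NT and full amino acid starvation library, and the right share is higher with cysteamine and in the knockdown than in NT2.

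Libraries differed in makeup. Totals over the listed transcripts ran from 25697 to 165747 counts and are not sequencing depths, because only transcripts with a count in every library are listed. A class of 347 transcripts with high counts in NT relative to NT2, which includes none of the members, took 75.4% ± 16.3 of an NT library on average and 9.59% ± 0.148 of an NT2 library (SD, n = 2). The class was picked in these same libraries by a ratio of mean NT to mean NT2 level above 2 times the median ratio. Its high share in NT and low share in NT2 thus follow in part from that choice. It took 17.0% ± 0.780 with cysteamine, 32.4% ± 0.502 of the knockdown libraries and 40.7% ± 1.68 of the rescue libraries. Of 12 fibroblast markers 7 were listed, and their summed level in CPM (counts scaled to library size) was 34147 to 37129 for NT2, 21375 to 22163 for cysteamine, 10941 to 11005 for the knockdown, 18629 to 19042 for the rescue. Of 24 markers of epithelial, pancreatic acinar, muscle and immune cells 3 were listed (Cdh1, Ctrb1 and Ttn), and their sum was 115 to 232 CPM for NT2, 298 to 326 for cysteamine, 798 to 813 for the knockdown, 1052 to 1177 for the rescue. In the first experiment the fibroblast sum was 15381 to 24103 CPM for NT, 31011 to 33770.2 for cysteine starvation, 15245 to 24752 for full amino acid starvation, and the sum of the other markers 1074 to 1959, 330.1 to 501 and 2506 to 2858 CPM. The other 21 markers are outside the table, which does not show that they were at 0. The part of these shifts in the results below was not tested, except that each fit was repeated without the 347 transcripts. In bulk RNA, fewer cells of a type and less RNA per cell cannot be told apart.

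Promoter windows of 250 bases were found in RefSeq (GRCm38.p6) for Hspa4, Hsph1 and Hspd1, which is 3 of the 6 members. The HSF1-type letters GAANNTTC or TTCNNGAA, each of which reads the same on both strands, were found in windows of Hsph1 and Hspd1 and not in the window of Hspa4; 12.8% of the 32817 windows in the table held one or the other. The sites below are those of the members with a match, whatever their levels, and capitals mark the motif. In Hsph1 it is TTCNNGAA, 33 to 26 bases before 1 annotated start and 54 to 47 bases before the other (7.16% of windows hold these letters). In Hspd1 it is a pair of TTCNNGAA motifs parted by 2 bases, 144 to 127 bases before 1 of 2 annotated starts. This pair also contains a match to GAANNTTC (6.69% of windows) that overlaps both, and it was found in 4 of the windows, or 0.0122%. Of the 30 bases shown, 26 in Hsph1 and 30 in Hspd1 also lie in an exon annotated on the same strand. A match describes letters only and says nothing of binding.
Hsph1, chr5:149636351-149636380, minus strand: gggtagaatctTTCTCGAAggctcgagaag
Hspd1, chr1:55088053-55088082, minus strand: ggggccTTCCGGAAGGTTCTAGAAcggacc

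**Figure D2:**
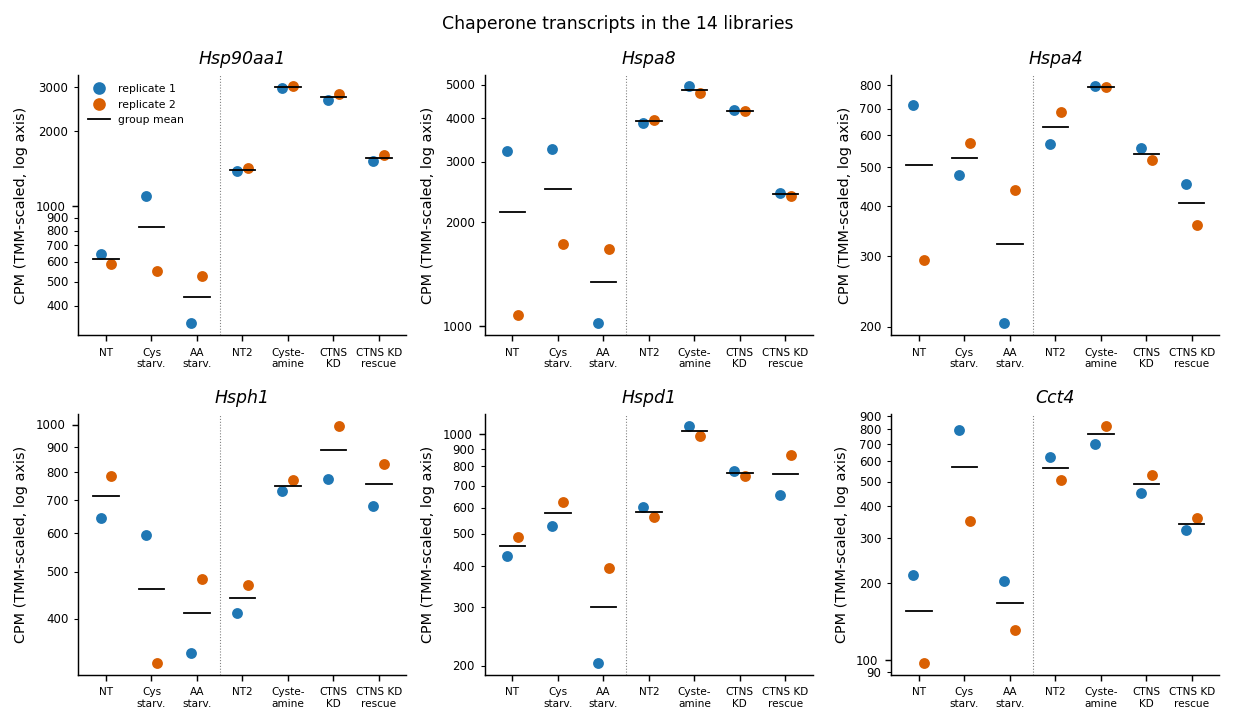
Each panel plots 1 chaperone in CPM on a log axis; points are libraries, coloured by replicate number, lines are group means, and the dotted line parts the first experiment (left) from the second. Hsp90aa1 is higher in the cysteamine and knockdown libraries than in every other library, and Hspa8, Hspa4 and Cct4 are lower in the rescue than in the other groups of the second experiment.

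Levels were set side by side per kilobase of transcript, since longer transcripts collect more reads. In NT2 Hspa8 was the most abundant member at 1639 ± 23.8 CPM per kilobase, Hsp90aa1 measured 427 ± 8.93, Hspd1 240.1 ± 11.8, Cct4 228 ± 33.4, Hspa4 136 ± 18.0 and Hsph1 116 ± 10.8 (SD, n = 2). Hspa8 was also the highest member in each of the other 6 groups. Together the members took 1.28% ± 0.0362 of counts in NT2 once the 347 transcripts were set aside. On the same basis the share was 1.86% ± 0.0193 for cysteamine, 1.94% ± 0.0623 for the knockdown and 1.29% ± 0.0531 for the rescue. The first experiment gave 1.17% ± 0.229 for NT, 1.06% ± 0.322 for cysteine starvation and 0.758% ± 0.159 for full amino acid starvation, where the libraries of a group lay further apart. Of all listed counts, the 347 transcripts included, the members took 1.16% ± 0.0309 in NT2 and 1.54% ± 0.00151 for cysteamine. The knockdown then held 1.31% ± 0.0519 and the rescue 0.765% ± 0.0532, so cysteamine was highest and the rescue below NT2.

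Cysteamine against NT2 asks what follows from clearing lysosomal cystine with a drug. All 6 chaperones had a log2 fold change above 0, as did 59.3% of all transcripts. Hsp90aa1, Hsph1 and Hspd1 passed the test, which is 3 of 6. Of all transcripts 5.5% were called higher, 5% lower and 10.5% in either direction at an adjusted p under 0.05 (edgeR's quasi-likelihood test, Benjamini-Hochberg over 1399 transcripts). The median log2 fold change of the members was 0.60, beside 0.13 for all transcripts. Overlap of libraries is described below and is not a test. The share of all transcripts without overlap was not computed.

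Hsp90aa1 measured 1382 and 1423 CPM in the NT2 libraries and 2967 and 3024 CPM with cysteamine. The groups did not overlap, and the treated libraries lay closer to each other than to any NT2 library. The log2 fold change was 1.09 ± 0.25 (SE), a 2.14-fold rise with an adjusted p of 0.0114. Hspd1, whose product folds proteins imported into mitochondria, measured 602 and 562 CPM in NT2 and 1062 and 992 CPM with cysteamine. It rose 1.76-fold (0.82 ± 0.17, adjusted p = 0.00531), again with no overlap. Hsph1, the heat-inducible HSP110, measured 412 and 470 CPM in NT2 against 731 and 769 CPM. Its rise was 1.71-fold (0.77 ± 0.19, adjusted p = 0.0197).

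The other 3 members did not pass the test. Hspa8 stood at 3884 and 3965 CPM in NT2 and at 4947 and 4724 CPM with cysteamine, without overlap. Its log2 difference of 0.30 ± 0.36 did not pass (adjusted p = 0.623). The fit estimated spread over all 14 libraries. The SD of Hspa8 was 1517 CPM in NT and 1089 CPM in cysteine starvation, but 57.0 CPM in NT2 and 158 CPM with cysteamine. Hspa4 stood at 0.34 ± 0.18 (adjusted p = 0.233) and Cct4 at 0.43 ± 0.21 (adjusted p = 0.189). All 3 calls were lost with limma on log2 CPM, which called 0 of 1399 transcripts here (by edgeR 387 lay under an unadjusted p of 0.05, while DESeq2 called 165), and when any 1 of the 4 libraries was left out (adjusted p between 0.0849 and 0.280). With the second experiment fitted alone 5 members were called higher, as were 225 of all 1399 transcripts.

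The hairpin is directed at CTNS, the transporter by which cystine leaves lysosomes. In the cells labelled as knockdown Hsp90aa1 and Hsph1 rose and no member fell, where 17.6% of all transcripts were called higher, 13.2% lower and 30.8% either way. Hsp90aa1 measured 2674 and 2822 CPM in the knockdown, against 1382 and 1423 CPM in NT2. That is a 1.96-fold rise (0.97 ± 0.25, adjusted p = 0.00930). Hsph1 measured 776 and 995 CPM against 412 and 470 CPM, a rise of 2.00-fold (1.002 ± 0.20 on the log2 scale, adjusted p = 0.00195). Both genes were above the range of NT2 in each knockdown library.

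Hspd1 was at 776 and 749 CPM in the knockdown, above NT2 but short of the threshold (0.39 ± 0.18, adjusted p = 0.111). Hspa8 differed by 0.10 ± 0.36, Hspa4 by -0.21 ± 0.20 and Cct4 by -0.22 ± 0.23, with adjusted p of 0.855, 0.452 and 0.513. The knockdown libraries of Cct4 overlapped those of NT2. The members' median was 0.24, against 0.09 for all transcripts. With limma neither gene was called (adjusted p = 0.108 for each). Hsp90aa1 passed without knockdown replicate 1 (0.0478) and not without knockdown replicate 2 (0.0621), NT2 replicate 1 (0.0935) or NT2 replicate 2 (0.0730), while Hsph1 missed the threshold only without NT2 replicate 1 (0.0525). Cysteamine and the knockdown share the NT2 libraries, so their rises are not independent of each other.

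**Figure D3:**
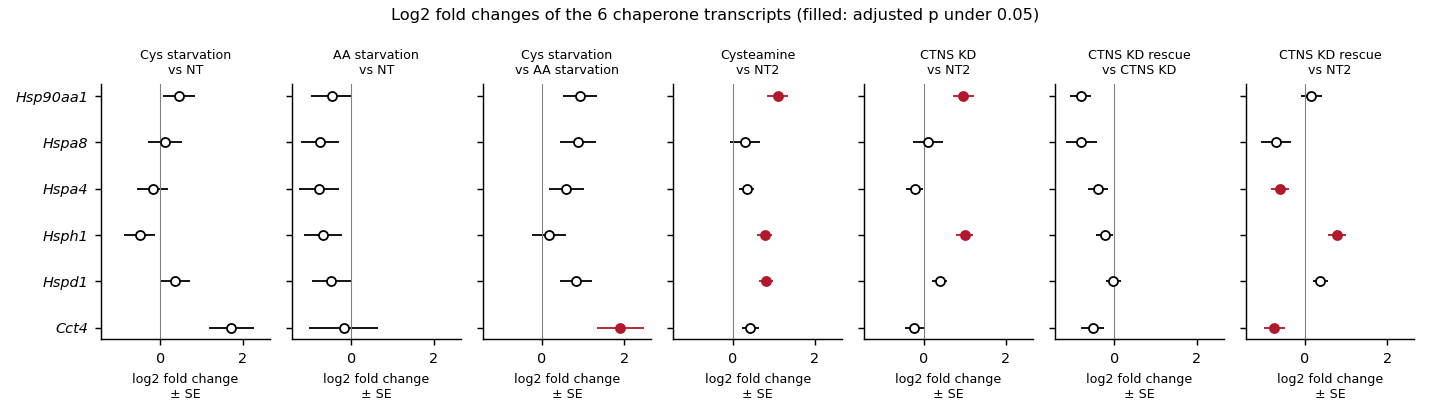
Points are log2 fold changes of each chaperone in the 7 comparisons, bars are standard errors, and filled red points have an adjusted p under 0.05. Hsp90aa1 and Hsph1 are filled with cysteamine and in the knockdown, Hspd1 with cysteamine, and Cct4 where cysteine starvation is set against full amino acid starvation. In rescue against NT2, Hsph1 is filled above 0 and Hspa4 and Cct4 are filled below it.

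The knockdown was also set directly against cysteamine, a comparison added with earlier results known. Hsp90aa1 differed by -0.12 ± 0.25 and Hsph1 by 0.23 ± 0.19 (adjusted p = 0.745 and 0.403), which does not show that they are equal. Cct4 was lower in the knockdown, at 452 and 530 CPM against 704 and 827 CPM with cysteamine (-0.65 ± 0.23, adjusted p = 0.0490); 14.7% of transcripts were called lower, 10.1% higher and 24.7% either way. Of the 4 other measured subunits of the same ring, all lay below 0 and 3 were called lower in the knockdown. Cct6a was at -0.70 ± 0.19 (adjusted p = 0.0165), Cct7 at -0.51 ± 0.18 (0.0488) and Cct8 at -0.81 ± 0.24 (0.0209). Cct5, at -0.68 ± 0.25 (0.0595), did not pass. The call of Cct4 was lost when any 1 of the 4 libraries was left out (adjusted p from 0.111 to 0.278) and in 5 other settings. Hspa4 (-0.55 ± 0.20, adjusted p = 0.0547), Hspd1 (-0.43 ± 0.17, 0.0823) and Hspa8 (-0.20 ± 0.36, 0.715) did not pass.

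The rescue, in which a CTNS plasmid accompanied the hairpin, was compared with the knockdown and with NT2. Against the knockdown no member was called by edgeR, where 0.643% of transcripts were called, all of them higher, and 0% lower. Hsp90aa1 measured 1517 and 1610 CPM in the rescue, between NT2 and the knockdown and without overlap with either. Its log2 difference from the knockdown was -0.81 ± 0.26 (unadjusted p = 0.00643, adjusted p = 0.232). Hspa8 was at 2436 and 2390 CPM, below both the knockdown and NT2 (-0.80 ± 0.37 against the knockdown, adjusted p = 0.441). Here 154 transcripts lay under 0.05 before adjustment, and 19 were called by DESeq2 and 1 by limma.

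Hsp90aa1 was called lower in the rescue than in the knockdown by DESeq2 (-0.82, adjusted p = 0.00112), without the 347 transcripts (-0.72, 0.00545) and with the second experiment fitted alone (-0.82, 0.000979). In the latter pair of settings Hspa8 was called lower too (-0.70, adjusted p = 0.0253, and -0.81, adjusted p = 0.000335). Among the other members the difference from the knockdown was -0.53 ± 0.28 for Cct4, -0.39 ± 0.24 for Hspa4, -0.23 ± 0.21 for Hsph1 and -0.02 ± 0.19 for Hspd1. Hsph1 and Hspd1 overlapped between rescue and knockdown.

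Relative to NT2 the rescue cells had more Hsph1 and less Hspa4 and Cct4, where 18.7% of transcripts were called higher, 12.9% lower and 31.5% either way. Hsph1 measured 682 and 830 CPM against 412 and 470 CPM in NT2 (1.71-fold, 0.77 ± 0.21, adjusted p = 0.0120). Hspa4 was at 455 and 359 CPM against 570.1 and 687 CPM (-0.61 ± 0.22, adjusted p = 0.0495), and Cct4 at 322 and 359 CPM against 626 and 508 CPM (-0.75 ± 0.26, adjusted p = 0.0394). These groups did not overlap. Hsp90aa1 did not pass (0.16 ± 0.26, adjusted p = 0.686), nor did Hspd1 (0.37 ± 0.19, 0.150) or Hspa8 (-0.70 ± 0.37, 0.169). The lower calls of Hspa4 and Cct4 were lost in 6 of the 8 other settings and on leaving out any 1 of the 4 libraries, and that of Hsph1 with limma (0.195) and without NT2 replicate 1 (0.135), NT2 replicate 2 (0.0522) or rescue replicate 2 (0.121).

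Ratios of counts within a library do not depend on scaling between libraries. The ratio of Hsp90aa1 to Hspa8 was 0.356 and 0.359 in the NT2 libraries and 0.600 and 0.640 with cysteamine. It was 0.633 and 0.673 for the knockdown, 0.623 and 0.674 for the rescue. Every library of the 3 altered groups thus lay above both NT2 libraries, the rescue included. In the rescue Hspa8 averaged 2413 CPM against 3924 CPM in NT2, and Hsp90aa1 averaged 1563 against 1402 CPM. The high ratio there goes with low Hspa8 and does not show raised Hsp90aa1. Against its close constitutive paralog Hsp90ab1, Hsp90aa1 stood at 0.221 and 0.208 (NT2), 0.278 and 0.286 (cysteamine), 0.331 and 0.327 (knockdown), and 0.250 and 0.259 (rescue). Reads of the HSP90 pair may be divided between them in a way that the sources used here do not describe, and Hspd1, with 5 named pseudogenes in the annotation, carries a similar uncertainty.

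The HSP110 genes parted from each other. Hsph1 over Hspa4 was 0.722 and 0.683 in NT2 and 0.919 and 0.972 with cysteamine. In the knockdown the ratio was 1.39 and 1.91, and in the rescue 1.5 and 2.31. All libraries of the 3 altered groups lay above those of NT2, and those of knockdown and rescue overlapped each other. In the rescue both terms differed from NT2, Hsph1 by 0.77 and Hspa4 by -0.61 on the log2 scale. In the first experiment the ratio ranged from 0.565 to 2.67 across 6 libraries on small counts (3 to 36 a gene), and the groups overlapped.

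**Figure D4:**
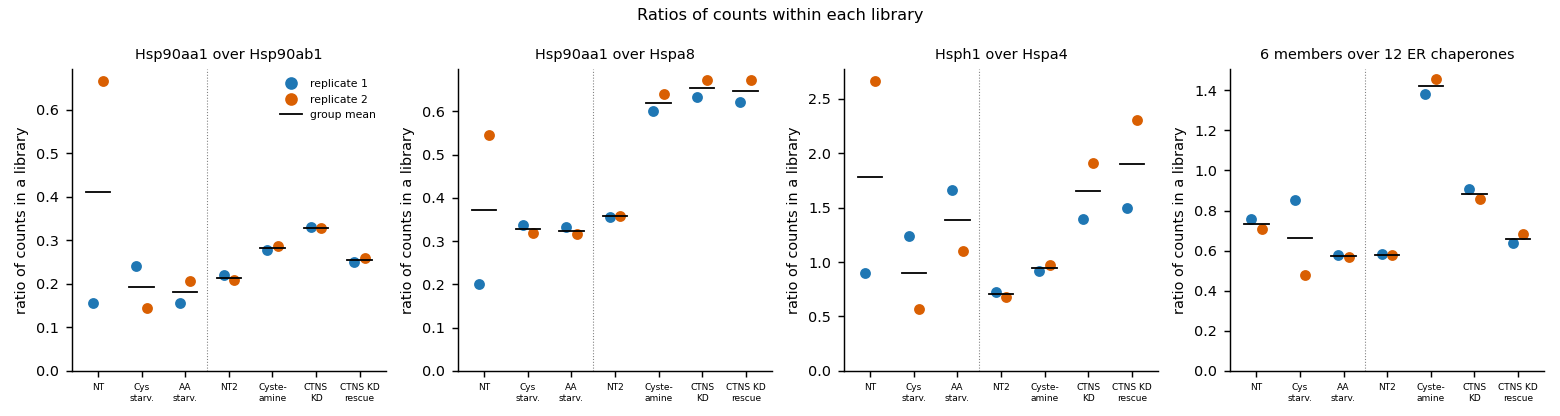
Panels plot ratios of raw counts within each library (points; lines are group means of 2): Hsp90aa1 over Hsp90ab1, Hsp90aa1 over Hspa8, Hsph1 over Hspa4, and the 6 chaperones over 12 chaperones of the endoplasmic reticulum. In the second experiment all 4 ratios are lowest in NT2, and the last peaks with cysteamine at 1.38 and 1.46.

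Other chaperone genes of the same compartments gave few calls. Of 55 cytosolic chaperones and regulators listed for this purpose 13 were measured, 4 of them members. Among the 9 non-members 8 were above 0 with cysteamine, beside 59.3% of all transcripts, and none was called. The constitutive HSP90 gene Hsp90ab1 differed by 0.70 ± 0.41 (adjusted p = 0.267), the HSP40 co-chaperone Dnaja1 by 0.47 ± 0.22 (0.173) and the HSP90 co-chaperone Cdc37 by 0.13 ± 0.18 (0.688). Bag6, which handles misplaced membrane proteins, differed by -0.19 ± 0.19 (0.533), and the HSP70-interacting gene St13 by 0.01 ± 0.18 (0.968). In the knockdown 7 of 9 were above 0, beside 55.0% of all transcripts. Nudc, an HSP90 co-chaperone, rose there (245 and 218 CPM in NT2 against 437 and 502 CPM, 1.005 ± 0.20, adjusted p = 0.00191). Its difference with cysteamine was 0.49 ± 0.20 (adjusted p = 0.124).

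Subunits of TRiC other than Cct4 were measured for 4 genes of a list of 20. With cysteamine all 4 were above 0 and none passed: Cct8 differed by 0.64 ± 0.21 (adjusted p = 0.0617), Cct5 by 0.60 ± 0.23 (0.107), Cct7 by 0.39 ± 0.17 (0.149) and Cct6a by 0.22 ± 0.18 (0.445). In the knockdown all 4 were below 0, between -0.48 ± 0.19 (Cct6a) and -0.08 ± 0.26 (Cct5), and none was called. Cct4 over the sum of the other 4 was 0.208 ± 0.0203 (NT2), 0.213 ± 0.0308 (cysteamine), 0.216 ± 0.0231 (knockdown) and 0.165 ± 0.00899 (rescue; SD, n = 2). The rescue libraries lay below the others of the second experiment in this ratio.

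Of 16 mitochondrial chaperones and proteases 3 were measured. Hspa9, the mitochondrial HSP70, differed by 0.16 ± 0.23 with cysteamine and by 0.23 ± 0.24 in the knockdown (adjusted p = 0.688 and 0.492). The inner membrane protease gene Afg3l2 differed by 0.07 ± 0.32 and -0.07 ± 0.35. Hspd1 over Hspa9 was 0.779 and 0.644 in NT2 and 1.12 in each cysteamine library, whereas the knockdown gave 0.904 and 0.695.

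Chaperones of the endoplasmic reticulum (ER), which fold secreted and membrane proteins and answer to a separate stress pathway, went the other way with cysteamine. Of 12 measured, 7 fell, 0 rose and all 12 were below 0, with a median of -0.77. Of all transcripts 5% were called lower and 59.3% lay above 0. Hspa5, the HSP70 of the ER, measured 2510.1 and 2556 CPM in NT2 and 1179 and 1090 CPM with cysteamine. That is a difference of -1.16 ± 0.28 (adjusted p = 0.0150), with no overlap. Calr, a lectin chaperone, differed by -1.18 ± 0.25 (0.00706) and Hsp90b1, the HSP90 of the ER, by -0.95 ± 0.26 (0.0329). P4hb (-0.41 ± 0.23), the collagen chaperone Serpinh1 (-0.30 ± 0.23) and Canx (-0.17 ± 0.16) did not pass. The count of 7 was 0 with limma, 6 to 8 in the other settings and 1 on leaving out any 1 of the 4 libraries; 11 or 12 of the 12 were below 0 in each of these.

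**Figure D5:**
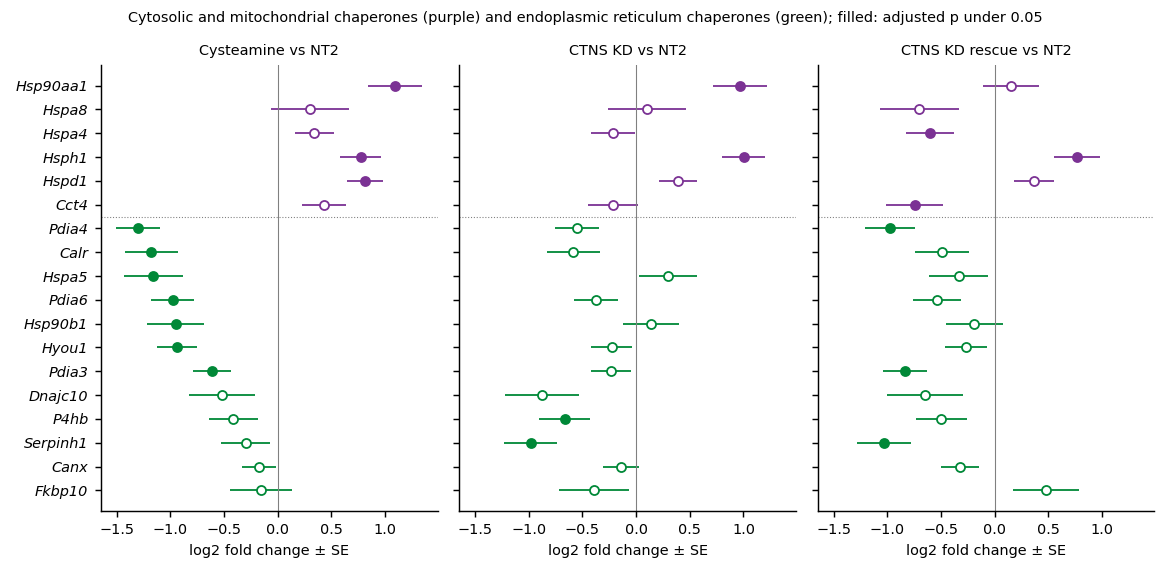
Points are log2 fold changes against NT2 with standard errors, for the 6 members (purple) and 12 chaperones of the ER (green); filled points have an adjusted p under 0.05. With cysteamine all purple points lie above 0 and all green points below it, and in the knockdown and the rescue the groups overlap.

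In each library the counts of the 6 members were divided by those of the 12 ER chaperones. The ratio was 0.582 and 0.577 for NT2, 1.38 and 1.46 for cysteamine, 0.907 and 0.857 for the knockdown, 0.639 and 0.681 for the rescue. All 4 groups were apart from each other. Compartment by compartment, Hspa8 over Hspa5 was 1.55 in each NT2 library and 4.19 and 4.33 with cysteamine, but 1.32 and 1.39 in the knockdown, below NT2. Hsp90aa1 over Hsp90b1 was 1.09 and 1.04 in NT2, 4.41 and 4.36 with cysteamine and 1.92 and 1.85 in the knockdown. The knockdown differed from cysteamine in Hspa5 by 1.45 ± 0.28 (adjusted p = 0.00290) and in Hsp90b1 by 1.09 ± 0.27 (0.0104). In the knockdown against NT2, P4hb (-0.66 ± 0.24, adjusted p = 0.0439) and Serpinh1 (-0.98 ± 0.25, 0.00766) fell. These are 2 of 12, where 13.2% of all transcripts were called lower, so the count is near the background.

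Cysteine starvation against NT asks what the loss of cysteine alone does. No member and no transcript passed edgeR's test (0% called in either direction, higher or lower; 230 transcripts lay under 0.05 before adjustment, with 67 called by DESeq2 and 5 by limma). Cct4 had the widest gap, with 6 counts and 1 count in NT and 48 and 14 in starved cells, or 215 and 98.0 CPM against 792 and 350.5 CPM. The groups did not overlap, and the difference was 1.72 ± 0.55 (adjusted p = 0.123). Against NT2 in place of NT it was 0.09 ± 0.27. Hsp90aa1 gave 645 and 588 CPM in NT and 1106 and 551 CPM in starved cells, and Hspa8 3223 and 1078 against 3268 and 1727 CPM. Each pair overlapped, with differences of 0.44 ± 0.39 and 0.11 ± 0.41. Hspd1 (0.35 ± 0.36), Hspa4 (-0.19 ± 0.37) and Hsph1 (-0.51 ± 0.37) did not pass either.

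Full amino acid starvation against NT likewise gave no call for any transcript (0% either way; 109 lay under 0.05 before adjustment, with 0 called by DESeq2 and 14 by limma). All 6 chaperones lay below 0, from -0.78 ± 0.48 for Hspa4 to -0.19 ± 0.84 for Cct4. The members' median was -0.58 and that of all transcripts 0.05, of which 57.5% lay above 0. Hsp90aa1, at 340.3 and 528 CPM on 5 and 12 counts, was below both NT libraries (-0.48 ± 0.49, adjusted p = 0.816). Hspd1, at 204 and 396 CPM on 3 and 9 counts, was below them as well (-0.48 ± 0.47, 0.851). So was Hsph1, at 340.3 and 484 CPM on 5 and 11 counts (-0.68 ± 0.45, 0.681).

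Set directly against full amino acid starvation, cysteine starvation gave a log2 fold change above 0 for all 6 chaperones, and Cct4 passed the test. Of all transcripts 52.4% lay above 0, and 2.57% were called higher, 12.4% lower and 15% either way. Cct4 measured 792 and 350.5 CPM against 204 and 132 CPM, the latter on 3 counts each (3.75-fold, 1.91 ± 0.57, adjusted p = 0.0352). Without cysteine starvation replicate 1 it was 1.12 (adjusted p = 0.348) and without replicate 2 it was 2.30 (0.00634). It was not called without either library of full amino acid starvation (0.116 and 0.250), nor without the 347 transcripts (0.156), with a minimum mean count of 20 (0.0673) or with the first experiment fitted alone (0.0642). Hsp90aa1 differed by 0.92 ± 0.42, Hspa8 by 0.87 ± 0.44 and Hspd1 by 0.83 ± 0.39 (adjusted p = 0.156, 0.209 and 0.188), with no overlap of libraries. Hspa4 (0.59 ± 0.43, also without overlap) and Hsph1 (0.18 ± 0.42, with overlap) were not called. The other 4 measured TRiC subunits were above 0 here, and none was called. Cct7 differed by 0.76 ± 0.37, Cct5 by 0.64 ± 0.64, Cct8 by 0.56 ± 0.57 and Cct6a by 0.04 ± 0.29. Cct4 over their summed counts was 0.338 and 0.173 with cysteine withheld, but 0.111 and 0.0833 with all amino acids withheld. The NT libraries gave 0.0882 and 0.0588, below the 0.223 and 0.194 of NT2. The cause of the low ratios was not tested.

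Effects of the experiments were compared by the difference of log2 fold changes. The knockdown effect exceeded that of cysteine starvation for Hsph1 (1.51 ± 0.43, adjusted p = 0.0196) and was below it for Cct4 (-1.94 ± 0.60, 0.0309), where 12% of transcripts had a higher, 7.15% a lower and 19.2% either difference. On leaving out 1 of the 8 libraries in turn, Hsph1 ranged from 1.21 to 2.07 and lost its call in 4 cases, and Cct4 from -2.84 to -1.16 and lost it in 5, the last value being that without cysteine starvation replicate 1 (adjusted p = 0.242). For the other 4 members this difference did not pass. Between cysteamine and cysteine starvation no member passed, where 4.43% of transcripts were higher, 2.36% lower and 6.79% either; Hsph1 came nearest (1.28 ± 0.42, adjusted p = 0.0791).

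The order of the 7 groups differed among members. Hsp90aa1 was highest with cysteamine (2996 ± 40.4 CPM), then in the knockdown (2748 ± 105), the rescue (1563 ± 66.2) and NT2 (1402 ± 29.3). Lower still were cysteine starvation (828 ± 392), NT (616 ± 40.2) and full amino acid starvation (434 ± 132). Only cysteine starvation and NT overlapped among these neighbours. Hspa8 (4835 ± 158 CPM), Hspa4 (793 ± 2.48), Hspd1 (1027 ± 49.6) and Cct4 (766 ± 86.8) also peaked with cysteamine, whereas Hsph1 was highest in the knockdown (886 ± 155) and its 4 highest groups, NT included, overlapped from one to the next. Of the 6 members 5 had their lowest mean in full amino acid starvation, and Cct4 had it in NT (156 ± 82.7). Levels set across the experiments rest on scaling between libraries of very different makeup.

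Transcripts most like the members' mean were sought among 891 with a mean count of at least 20, by Pearson's r of log2 CPM over all 14 libraries. They were Lmnb1, a nuclear lamina gene (0.938), Fth1, the ferritin heavy chain (0.936), Hnrnpa1, an RNA-binding protein gene (0.929), Rpl5, a ribosomal protein gene (0.928), and Pprc1, a coactivator gene (0.927). The median r of all compared was 0.413. These values describe libraries that share groups, scaling and the gap between experiments. Over the 8 libraries of the second experiment the 5 values were 0.898, 0.611, 0.695, 0.976 and 0.596. Within that experiment Hspa8, Hspa4 and Cct4 ran together (r from 0.856 to 0.875 over 8 libraries), and Hsph1 did not follow them (-0.238 to -0.0377).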

How the data were processed

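RNA was extracted with TRIzol, selected on oligo(dT) beads, and pieces of 50 to 100 nucleotides were made into libraries, per the labels' protocols. According to the submitters' processing notes, GRCm39 was the build, and the tools included STAR 2.7.10a, Bowtie 1.2.3, cutadapt 2.8 and bcl2fastq 2.20.0.422. Their roles, the counter, annotation and strand setting are not stated. The values the authors deposited are whole-number counts per Ensembl transcript, not normalized, although named as CPM. Every listed count is at least 1, so falls to 0 cannot be seen. Low counts carry wide counting error, and reads without molecular identifiers are not independent molecules.

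Symbols came from GENCODE M21 (1385 of 1399 matched), and levels per kilobase use its transcript lengths. edgeR 4.0.16 (R 4.3.3) fitted 7 group means to all 14 libraries after TMM scaling, with 7 residual degrees of freedom, and p-values were adjusted by Benjamini-Hochberg over 1399 transcripts (two-sided, threshold 0.05). SE is the log2 fold change over the root of F. CPM are TMM-scaled; log2 CPM used a prior count of 2. With 2 libraries a group an exact permutation test cannot go below p = 0.333, so none is given. DESeq2 1.42.0 and limma 3.58.1 were alternatives. The 7 comparisons and 2 differences between effects were planned and 1 comparison added.

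Named genes are the 6 members, up to 6 non-members of each of 4 chaperone lists by mean count, and the 5 transcripts most like the members. Members and lists were chosen with earlier results of these data known.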

Additional observations from a re-analysis of the deposited data

Results flagged for a closer look

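These results were picked out because an effect differed between conditions by a test of the difference itself. Cct4 was higher in cysteine starvation than in full amino acid starvation by 1.91 ± 0.57 on the log2 scale (adjusted p = 0.0352), on 3 counts in each library of the latter. That call was lost with a minimum mean count of 20, without the 347 transcripts and with the first experiment fitted alone. The knockdown effect was above that of cysteine starvation for Hsph1 (1.51 ± 0.43, adjusted p = 0.0196) and below it for Cct4 (-1.94 ± 0.60, adjusted p = 0.0309). For Hsph1 the NT libraries held 18 and 8 counts, and its cysteine starvation difference of -0.51 ± 0.37 was not called. With NT2 in place of NT that difference of Hsph1 was 0.13. For Cct4 the difference between effects rests on NT libraries with 6 counts and 1 count. Its knockdown difference from NT2 was -0.22 ± 0.23 and was not called. With NT2 in place of NT its cysteine starvation difference was 0.09. Cct4 was lower in the knockdown than with cysteamine (-0.65 ± 0.23, adjusted p = 0.0490), where 24.7% of all transcripts were called in either direction. This last call was lost with DESeq2 and with limma, among other settings. Leaving out 1 library gave differences from -0.76 to -0.53. All p-values are from edgeR's quasi-likelihood test.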

How the results depend on the processing

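Members called are counted out of 6, and the main value is in brackets. Calls over all transcripts also changed with the settings, and the larger changes close this section. In cysteine starvation against NT the count called higher (0) was 1 with the replicate block (Cct4, 1.86, adjusted p = 0.0294). In full amino acid starvation against NT the count called lower (0) was 3 with NT2 as control. In cysteine against full amino acid starvation the count called higher (1) was 0 with a minimum mean count of 20, without the 347 transcripts high in NT, and with the experiments fitted apart. With cysteamine the count called higher (3) was 0 with limma and 5 with the experiments fitted apart. In the knockdown the count called higher (2) was 0 with limma, and 3 with a minimum mean count of 20 and without the 347 transcripts, where Hspd1 was added (adjusted p = 0.0356 and 0.00927). In rescue against knockdown the count called lower (0) was 1 with DESeq2, 2 without the 347 transcripts and 2 with the experiments fitted apart. In rescue against NT2 the count called higher (1) was 0 with limma, 2 with a minimum mean count of 20 and 2 without the 347 transcripts. The count called lower there (2) was 0 with DESeq2 size factors, DESeq2, limma, a minimum mean count of 20, without the 3 dominant transcripts and without the 347 transcripts, and 3 with the experiments fitted apart, where Hspa8 was added (-0.79, adjusted p = 1.6e-05). The difference of the cysteamine and cysteine starvation effects (0 higher) gave 1 with DESeq2, a minimum mean count of 20 and without the 347 transcripts. The difference of the knockdown and cysteine starvation effects (1 lower) gave 0 under the same 3 settings. In knockdown against cysteamine the count called lower (1) was 0 with DESeq2 size factors, DESeq2, limma, a minimum mean count of 20 and without the 3 dominant transcripts, 2 without the 347 transcripts, 4 with the experiments fitted apart and 3 with the replicate block.

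Leaving out 1 library at a time gave 0 to 1 members called higher in cysteine starvation against NT, 0 to 2 in cysteine against full amino acid starvation, 0 to 0 with cysteamine, 0 to 2 in the knockdown and 0 to 1 in rescue against NT2, where 0 to 0 were called lower. It gave 0 to 1 higher and 0 to 1 lower for the difference of the knockdown and cysteine starvation effects, and 0 to 0 lower in knockdown against cysteamine. Directions turned in this way for Hsp90aa1 (-0.19 to 0.82), Hspa8 (-0.45 to 1.23) and Hspa4 (-0.46 to 0.82) in cysteine starvation, for Hspa8 (-1.22 to 0.36), Hspa4 (-1.54 to 0.23) and Cct4 (-0.47 to 0.71) in full amino acid starvation, for Hsph1 between the starvations (-0.39 to 0.50) and for Hspd1 in rescue against knockdown (-0.22 to 0.19).

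Other log2 values that changed sign were all uncalled in edgeR. In cysteine starvation against NT, NT2 as control gave -0.72 for Hsp90aa1, -0.64 for Hspa8, 0.13 for Hsph1 and -0.032 for Hspd1; NT and NT2 together gave -0.14 for Hsp90aa1 and -0.27 for Hspa8; Hspa8 was -0.052 with a minimum mean count of 20 and -0.24 without the 347 transcripts, and Hspa4 was 0.18 with limma. Cct4 in full amino acid starvation was 0.15 with limma and 0.15 with the replicate block. Between the starvations Hsph1 was -0.072 with a minimum mean count of 20 and -0.096 without the 347 transcripts. In rescue against knockdown Hspd1 was 0.00056 with that minimum, 0.024 without the 3 dominant transcripts and 0.070 without the 347.

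Counts over all transcripts, higher and lower, moved by over 1.5 times as follows, with the range on leaving out 1 library last. Cysteamine (77 and 70) gave 0 and 0 with limma, 176 and 152 without the 347 transcripts, 225 and 150 with the experiments apart, 163 and 106 with the replicate block, and 6 to 11 and 9 to 21. The knockdown (246 and 185) gave 79 and 35 with limma, 276 and 292 apart, and 101 to 146 and 85 to 104. Rescue against knockdown (9 and 0) gave 12 and 7 with DESeq2, 1 and 0 with limma, 33 and 7 without the 347, 41 and 17 apart, 10 and 1 with a minimum mean count of 20, and 1 to 4 and 0 to 0. Rescue against NT2 (261 and 180) gave 123 and 22 with limma, 171 and 134 with that minimum, 148 and 139 without the 347, 279 and 299 apart, and 171 to 190 and 85 to 97. Knockdown against cysteamine (141 and 205) gave 0 and 4 with limma, 234 and 295 apart, and 13 to 56 and 54 to 84. Cysteine starvation (0 and 0) gave 0 and 2 with DESeq2 size factors and without the 3 dominant transcripts, 12 and 55 with DESeq2, 5 and 0 with limma, 13 and 67 with the block, 168 and 80 with NT2 as control, 8 and 0 with both controls, and 0 to 18 and 0 to 94. Full amino acid starvation (0 and 0) gave 9 and 5 with limma, 290 and 169 with NT2, 217 and 32 with both controls, and 0 to 18 and 0 to 2. Cysteine against full amino acid starvation (36 and 174) gave 91 and 189 with limma, 13 and 104 with the minimum, 4 and 12 without the 347, 1 and 86 apart, and 1 to 34 and 17 to 161. The cysteamine effect less that of cysteine starvation (62 and 33) gave 62 and 21 with DESeq2 size factors, 96 and 35 with DESeq2, 9 and 2 with limma, 4 and 16 without the 347, 102 and 41 with the block, and 0 to 117 and 0 to 36; the knockdown effect less that of cysteine starvation (168 and 100) gave 110 and 73 with the minimum, 10 and 45 without the 347, and 109 to 193 and 65 to 103. The cause of these changes was not tested. Deviations of libraries of equal replicate number from their group means correlated by -0.214 to 0.287 over 3 pairs of groups in the first experiment and by 0.0920 to 0.281 over 6 in the second, all above 0 there. Since not every pair was over 0.1 and the labels name nothing that a number marks, the samples were taken to share only a number; a shared batch in the second experiment was not tested. Counts of 1 to 3 for some members in NT and full amino acid starvation limit what those comparisons can detect.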
